A study of Rattus norvegicus with 24 samples.

Results

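The nuclear factor I family was followed through its 4 genes on the array, Nfix, Nfia, Nfib and Nfic, in the blood of rats given lipopolysaccharide (LPS) or saline and fed oat beta-glucan or a control diet. Its members were all the probes, control spots aside, whose gene name on the array equals one of these symbols, which gave 6 of 30367 probes and 4 of 25885 gene names. Nfix had 2 probes, Nfia 2, Nfib 1 and Nfic 1. Nfix was selected on its own log2 ratios, because they were lower on the high molecular weight beta-glucan diet in rats without LPS. That difference and every difference that shares one of its groups are therefore given as a description, with no test.

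Nuclear factor I proteins are transcription factors that bind DNA as dimers through a conserved domain at the amino-terminal end, and they can raise or lower the transcription of their target genes. Nfix is known for the survival of blood stem and progenitor cells and for the change from embryonic to foetal muscle, and Nfia is known for the choice between the erythroid and the granulocytic lineages. Nfib is known for lung and brain development, and Nfic for the growth of tooth roots.

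The 6 groups held 4 male Sprague-Dawley rats each, 8 weeks old at the start and on their diets for 6 weeks. C-G0, C-G1 and C-G2 received saline, and LPS-G0, LPS-G1 and LPS-G2 received 10 mg/kg of LPS from Escherichia coli, injected repeatedly into the tail vein. G0 stands for the diet without beta-glucan, G1 for that with oat beta-glucan of high molecular weight and G2 for that of low molecular weight. RNA of each rat was hybridised with a common reference RNA on 1 Agilent array of 24, on 3 slides that each held all 6 groups. A value below is the log2 ratio of the rat's Cy3 signal over the Cy5 signal of the reference, so 0 means the level of the reference. The labels name Cy3 for the rat and the study's methods name Cy5, and with Cy5 every sign would turn. The channel was inferred from the values, since single rats should vary more than a common reference. Over 7074 bright probes the median SD within groups was 0.383 in log2 Cy3 and 0.257 in log2 Cy5, and it was larger in Cy3 for 95.3% of them. Whether a dimmer or noisier Cy3 dye gave this was not tested, so the signs below rest on that reading. Of all probes, 7786 to 15385 on an array stood well above background in the rat channel. The arrays labelled LPS-G0 replicates 3 and 4 carry a second label that says control, so the main results that use them are also given without them.

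The probes are shown here because they decide what each value can say. The first Nfix probe, A_42_P721270, was the lead probe and is quoted unless the other is named. The array's own annotation placed it on the rn4 assembly at chr19:25106383-25111325, a span of 4943 bases for an oligonucleotide of 60 bases, so its placement is split over the genome. The second probe was placed at chr19:25106371-25106430. Exons and untranslated regions of rn4 were not used here. In the first pair of lines, capitals mark the 48 bases that both Nfix probes share.
Nfix A_42_P721270: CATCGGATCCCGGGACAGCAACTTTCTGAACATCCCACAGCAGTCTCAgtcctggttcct
Nfix A_64_P021970: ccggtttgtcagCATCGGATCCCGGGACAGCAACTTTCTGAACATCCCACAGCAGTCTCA
With 48 of 60 bases in common, both probes read almost the same stretch of the transcript and are not independent of each other. One of the Nfia probes, A_64_P134410 at chr5:118477331-118477390, covers the matching stretch of its own gene. In the second pair of lines, capitals mark the bases that are equal when it is laid without gaps along the second Nfix probe, 40 of 59.
Nfia A_64_P134410: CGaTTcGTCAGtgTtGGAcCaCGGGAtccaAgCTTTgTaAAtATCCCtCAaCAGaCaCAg
Nfix A_64_P021970: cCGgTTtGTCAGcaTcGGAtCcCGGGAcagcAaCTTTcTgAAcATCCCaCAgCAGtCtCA
The longest run of equal bases between them was 5. The other Nfia probe lies at chr5:118165584-118165643, the Nfib probe at chr5:101184258-101184317 and the Nfic probe at chr7:9786454-9786513.

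Nfix was the bright member of the family in blood. Its lead probe was well above background in Cy3 and in Cy5 on all 24 arrays, with Cy3 signals of 1867 to 10030 and a median of 4010. These signals stood between the 91.8th and the 97.0th percentile of all probes of their array. The second Nfix probe had Cy3 signals of 1918 to 8814 and was above background on 24 of 24 arrays as well. The log2 ratios of both probes had an r of 0.99 over the 24 arrays and never differed by more than 0.18, and the 2 spots of the lead probe never differed by more than 0.11.

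The other family members were at background in nearly every rat. The Nfia probe A_64_P134410 had Cy3 signals of 9.36 to 23.2 and was well above background in Cy3 on 0 of 24 arrays, although it shares most of its letters with the bright Nfix probe. The Nfib probe had Cy3 signals of 9.96 to 42.1 and was above background on 0 of 24 arrays. In Cy5, the reference channel, Nfib was above background on 15 of 24 arrays. On every array more probes were above background in Cy5 than in Cy3, 14400 to 22449 against 7786 to 15385. The Nfic probe had Cy3 signals of 8.54 to 73.4 and was above background on 1 of 24, LPS-G2 replicate 3. The Nfia probe A_44_P475418 stood out on 2 arrays, with Cy3 signals of 366 in LPS-G0 replicate 2 and 537 in LPS-G1 replicate 1, and was not well above background on the other 22, where it ran from 7.33 to 49.0. On the same 2 arrays the other Nfia probe was not above background. The lowest Cy3 signal that counted as well above background was between 35.95 and 118 per array, so levels of Nfia, Nfib and Nfic under that floor were not detectable here. To be tested, a probe had to clear background in Cy3 in all 4 rats of some group. This held for 10708 probes, both Nfix probes among them, and for none of the 4 probes of Nfia, Nfib and Nfic. No fold change is given for these, since all groups were at background.

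**Figure D1:**
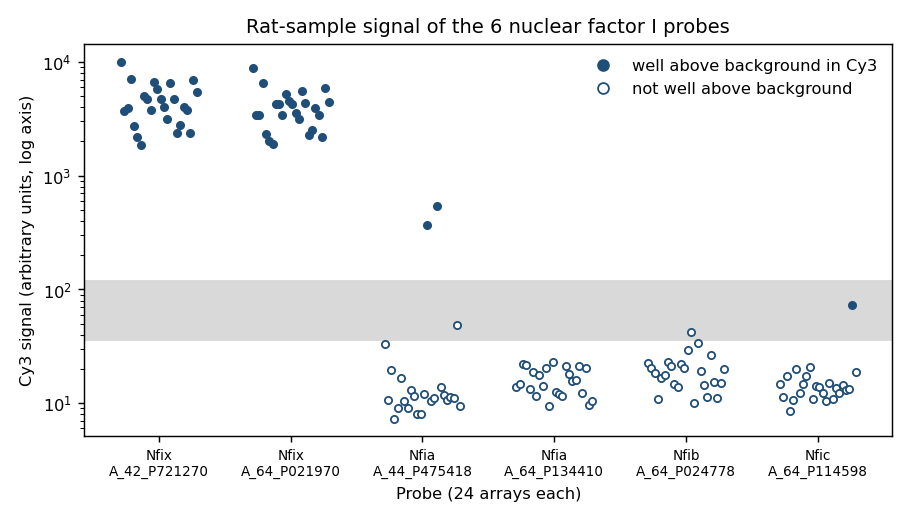
Cy3 signal (arbitrary units, log axis) of the 6 nuclear factor I probes, 1 point per array and 24 arrays per probe. Filled points were well above background and open points were not, and the grey band spans the lowest signal well above background over the 24 arrays. Both Nfix probes lie at 1867 or more on every array, and 3 points of Nfia and Nfic are filled.

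Nfix was highest in the saline rats on the control diet and lowest in the saline rats on the high molecular weight diet. In C-G0 its log2 ratios were 1.07, 0.020, 0.67 and 0.49, with a mean of 0.56 ± 0.44 (SD, n = 4). In C-G1 they were -0.70, -0.90, -0.64 and -0.21, with a mean of -0.61 ± 0.29 (SD, n = 4). C-G0 had the widest spread of the 6 groups, with replicate 1 far up and replicate 2 at the level of the reference, and all 4 rats of C-G1 were below all 4 of C-G0.

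The low molecular weight diet without LPS gave a narrow group near the reference. In C-G2 the log2 ratios of Nfix were 0.045, 0.040, 0.13 and -0.085, with a mean of 0.03 ± 0.09 (SD, n = 4). These 4 rats were above all rats of C-G1 and overlapped the range of C-G0 through its replicate 2.

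With LPS, the means of Nfix on the 3 diets ran from -0.23 to 0.15. In LPS-G0 the log2 ratios of Nfix were 0.16, 0.0068, 0.26 and 0.19, with a mean of 0.15 ± 0.11 (SD, n = 4). In LPS-G2 they were -0.046, -0.080, 0.35 and 0.11, with a mean of 0.08 ± 0.20 (SD, n = 4). In LPS-G1 they were 0.074, -0.53, 0.092 and -0.54, with a mean of -0.23 ± 0.36 (SD, n = 4). The rats of LPS-G1 fell into 2 at the level of the other LPS groups and 2 below every rat of those groups, and the low ones were 1 array on slide 2 and 1 on slide 3.

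**Figure D2:**
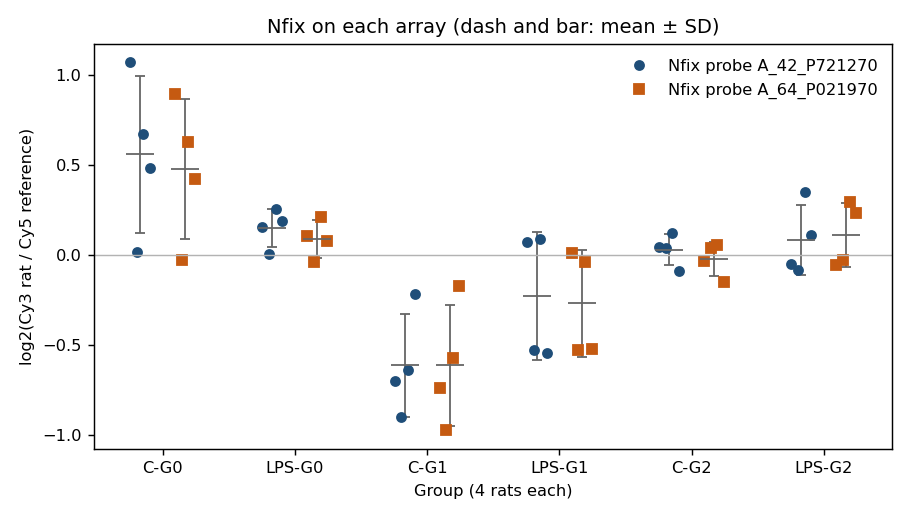
Log2 ratio of Nfix on each array by group, with circles for probe A_42_P721270 and squares for A_64_P021970. Dashes and bars are the mean and SD of 4 rats. C-G0 has the highest mean and C-G1 the lowest with both probes, 0.56 and -0.61 with the first.

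From the highest to the lowest mean the order was C-G0, LPS-G0, LPS-G2, C-G2, LPS-G1 and C-G1. Each neighbour in that order overlapped the next. Taken from Cy3 alone, relative to the array's 75th percentile, C-G0 stayed highest, at 4.86 ± 0.63 (SD, n = 4), LPS-G1 and C-G1 stayed lowest, at 4.07 ± 0.42 and 3.60 ± 0.78, and the other 3 groups changed places between 4.51 and 4.68.

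The contrast by which Nfix was chosen asks what the high molecular weight diet does without LPS. Nfix was lower in C-G1 than in C-G0 by a log2 difference of -1.18 with the lead probe, a ratio of 0.443, and of -1.09 with the second. Among the 10708 probes tested it was the 61st from the lowest in this contrast and the 81st by size. Nfix is one of the probes whose groups did not overlap with C-G1 the lower, which were 3.97% of those tested. A probe counts as called when its fold change is 2 or more and its adjusted p is under 0.05, and 0.028% of probes, or 3, were called in this contrast, with 27.9% at an unadjusted p under 0.05. The number called rested on single arrays, with 314 without C-G0 replicate 4 and 0 without C-G0 replicate 1. Nothing is read from these shares for Nfix, since this contrast chose it. Within slides 1, 2 and 3 the difference was -1.24, -1.44 and -0.70. In the reference channel alone, Cy5 relative to its 75th percentile, the same groups differed by -0.08, against -1.26 in Cy3 alone.

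The other differences that share C-G0 or C-G1 are set beside it in the same way. Nfix was lower in C-G2 than in C-G0 by -0.53, and lower in C-G1 than in C-G2 by -0.64, with no overlap between the groups in the latter, which held for 1.15% of probes in that direction. In Cy3 alone the values were -0.18 and -1.08, and in Cy5 alone C-G2 stood 0.36 above C-G0. LPS-G0 was lower than C-G0 by -0.41, or by -0.48 without LPS-G0 replicates 3 and 4, and LPS-G1 was higher than C-G1 by 0.39. The latter was 0.77 and 0.55 within slides 1 and 2 and -0.33 within slide 3. All of these share the C-G0 or C-G1 values that chose the gene, and none was tested.

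The comparisons that use neither group ask whether the diets differ under LPS, and whether LPS does so on the low molecular weight diet. Nfix passed the test in none of the 4. In LPS-G1 vs. LPS-G0 its mean was lower by -0.38 (95% interval -0.79 to 0.03), with an adjusted p of 0.237 by limma and Benjamini-Hochberg adjustment, an unadjusted p of 0.0678 and an exact permutation p of 0.114. An exact two-sided test of 4 rats against 4 cannot go below 0.0286. Of all probes tested in this comparison 0.028% were called and 23.7% had an unadjusted p under 0.05, and of the 2 Nfix probes 0 did either. The 3 probes called became 86 without C-G1 replicate 2, 0 without LPS-G0 replicate 3, 118 with only the 8 arrays of the comparison and 239 with array weights. The second probe gave -0.36, with an adjusted p of 0.241. Within slides 1, 2 and 3 the difference was -0.0081, -0.48 and -0.73. Without the arrays labelled LPS-G0 replicates 3 and 4 it was -0.31, with an adjusted p of 0.516.

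Under LPS, Nfix on the low molecular weight diet had a mean near that on the control diet. In LPS-G2 vs. LPS-G0 the log2 difference was -0.07 (95% interval -0.48 to 0.34), with a limma adjusted p of 0.943 and an exact permutation p of 0.571. The second probe gave 0.02, and without LPS-G0 replicates 3 and 4 it was 0.0017. The sign of so small a difference was not fixed. No probe was called in this comparison by limma at an adjusted p under 0.05, and 5.29% of probes had an unadjusted p under 0.05.

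The beta-glucans of high and low molecular weight were compared directly under LPS. In LPS-G1 vs. LPS-G2 Nfix was lower by -0.31 (95% interval -0.72 to 0.10), with a limma adjusted p of 0.808 and an exact permutation p of 0.229. Within slides it was 0.12, -0.14 and -0.78, so its sign was not the same on the 3 slides. The interval holds both no difference and a fall of 0.72, and does not show that the beta-glucans act alike. In this comparison limma called 0 probes, with 4.21% at an unadjusted p under 0.05.

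On the low molecular weight diet, Nfix was compared with and without LPS. In LPS-G2 vs. C-G2 the log2 difference of Nfix was 0.05 (95% interval -0.36 to 0.46), with a limma adjusted p of 0.9999 and an exact permutation p of 0.714. It was -0.09, -0.12 and 0.21 within the slides, and -0.04 without LPS-G2 replicate 3, the highest rat of its group. Limma called 0 probes here, with 1.09% at an unadjusted p under 0.05.

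**Figure D3:**
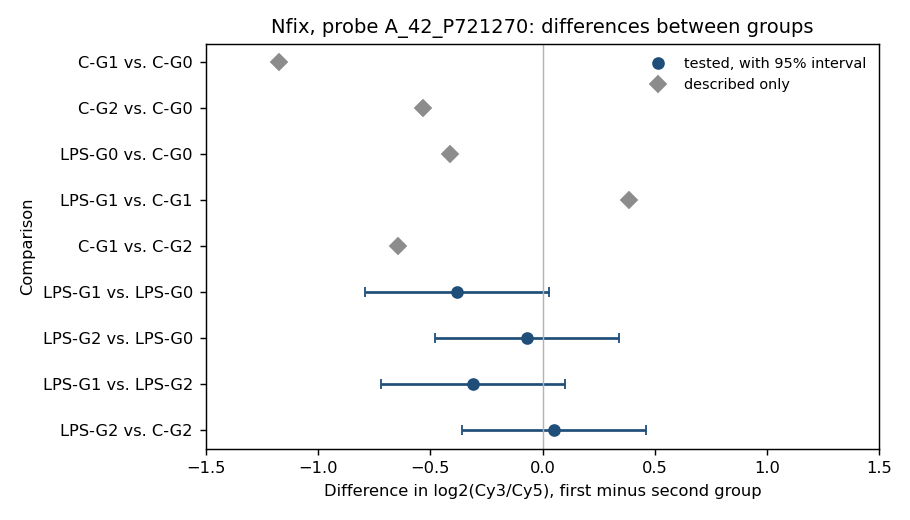
Difference in log2 ratio of Nfix between the means of 2 groups, the first minus the second. Circles with bars are the 4 tested comparisons and their 95% intervals, and diamonds are the 5 comparisons that share a group with the one that chose Nfix. All 4 intervals include 0, and the C-G1 vs. C-G0 diamond lies farthest from it at -1.18.

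Genes whose pattern over the 24 arrays was most like that of Nfix were ranked by Pearson's r of their log2 ratios. Probes named by an LOC, RGD, Ensembl or other accession symbol were left out, as were the family members. For each gene 1 probe was kept. The ranking is a description, since all arrays share the reference and the 8 arrays that chose Nfix are among them. Furin, a proprotein convertase, had an r of 0.86, and so had Psd2, an exchange factor for ARF GTPases. They were followed by Atp6v0a1, a subunit of the vacuolar proton pump (0.84), Git1, a GTPase-activating protein (0.81), Slc16a10, a carrier of aromatic amino acids (0.81), and Add2, the beta-adducin of the red cell membrane skeleton (0.80). Rsad2, an antiviral interferon-induced gene (0.80), Gtlf3b (0.79), Dyrk3, a kinase known from erythroid progenitors (0.79), and Ints3 of the Integrator complex (0.79) closed the 10. Over all 10707 other probes tested, with no name left out, r at the 99th percentile was 0.73. Of these probes 9 had an r of at least 0.8, the second Nfix probe among them. Only 3 of the 10 were also among the 10 by Spearman's rho, and 1 by Cy3 alone, so the order of these names is loose.

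Since these genes were ranked on arrays that include C-G0 and C-G1, their group means only restate the choice. Furin was 0.42 in C-G0 and -0.60 in C-G1 on average, and between -0.25 and 0.02 in the other 4 groups. Dyrk3 was 0.45 in C-G0 and 0.53 in LPS-G0, and its C-G1 mean lay below that of C-G0 by -1.45. At the other end stood Msmo1, an enzyme of cholesterol synthesis, with an r of -0.86, which averaged -0.56 in C-G0 and 0.16 in C-G1. Gjb2, a gap junction protein (-0.85), Fdx1, a ferredoxin (-0.83), Tmem109 (-0.82) and Zufsp (-0.82) came next. After each group's mean was taken off, the highest r belonged to Mospd1 (0.79), Olr1582 (0.78), Tmem63b (0.78), Pdcd1, a receptor of T cells (0.77), and Smim1, which carries the Vel blood group (0.76). Pear1, a receptor of platelets (0.76), Psd2 (0.75), Ptdss2, a phosphatidylserine synthase (0.73), Tmem108 (0.73) and Prelp (0.73) followed. Psd2 was the 1 gene in both sets of 10.

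Among the transcription factors and receptors of the blood lineages, a list of 26 genes that also holds the erythroid products Hbb and Alas2, 25 were on the array by name and 19 were tested. None was called by limma in any of the 9 comparisons, in which 0% to 0.028% of all probes were called (0.00934% in LPS-G1 vs. C-G1). Other settings called at most 1 of the 19, in C-G1 vs. C-G0 and in C-G2 vs. C-G0, both without C-G0 replicate 4 and the latter also with a slide or replicate block. Without C-G0 replicate 4, 314 and 159 of all 10709 probes were called in these comparisons. In C-G2 vs. C-G0 slide as a fixed or random block called 4 and 6 of 10708, and the replicate block 18. At an unadjusted p under 0.05 by limma there were 5 of the 19 in C-G1 vs. C-G0, where 27.9% of all probes were. There were 3 in C-G1 vs. C-G2 (15.4%), 2 in LPS-G0 vs. C-G0 (11.3%) and 2 between LPS-G1 and LPS-G0 (23.7%). Without LPS-G0 replicates 3 and 4 there were 4 in C-G2 vs. C-G0 (12.3%). The same fit had 1 in LPS-G0 vs. C-G0 (5.39%) and 1 between LPS-G1 and LPS-G0 (15.9%). Over the 24 arrays, those that chose Nfix among them, the r of single factors with Nfix ran from -0.71 to 0.68 as a description. It was 0.66 for Gata1, 0.58 for Nfe2, 0.53 for Klf1 and 0.44 for Tal1, and 0.68 for the globin switch factor Bcl11a. Spi1, a factor of myeloid and B cells, had -0.17, and Cebpa was not tested, being above background on 1 array. Cebpb, a factor of myeloid cells, had -0.71, Lmo2, a partner of Tal1, had -0.68, and its binding partner Ldb1 had -0.04, all singled out after their values were seen. In LPS-G1 vs. LPS-G0, 10 of the 19 were below 0 with a median log2 difference of -0.03, and the median of all probes was 0.07. Without LPS-G0 replicates 3 and 4, 11 were below 0 with a median of -0.05. In C-G1 vs. C-G0, 14 of the 19 were below 0 with a median of -0.18.

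Red cell genes had lower values in C-G1 than in C-G0, as Nfix had, though none passed the test. In whole blood, fewer cells of a type and less RNA per cell cannot be told apart. Of 22 erythroid genes, 20 were on the array and tested, and 19 of them were lower in C-G1 than in C-G0, with a median log2 difference of -0.78 against 0.02 over all probes. At an unadjusted p under 0.05 there were 11, where 27.9% of all probes were, and limma called 0. Without C-G0 replicate 4 or with a replicate block up to 5 were called. Over all probes these 2 settings called 314 of 10709 and 88 of 10708. Without C-G1 replicate 2, 17 of the 20 were lower with a median of -0.45. That array also had the lowest platelet, neutrophil and lineage regulator means of the 24 and the highest 75th percentile of log2 Cy3, 8.33. Gata1, the leading erythroid factor, differed by -0.87, Klf1, an activator of globin genes, by -0.64, and Hbb, the beta-globin, by 0.08, examples that were also picked after their values were seen. The mean of the list ran from -1.45 to -0.14 in C-G1 and from -0.18 to 0.53 in C-G0, and C-G1 replicate 2, with the lowest Nfix of all arrays, had the lowest list mean too. In LPS-G1 vs. LPS-G0, 16 of the 20 were below 0 with a median of -0.26 against 0.07 over all probes, with 5 at an unadjusted p under 0.05, a share near the 23.7% of all probes, and 0 called. Up to 4 were called with array weights, with the 8 arrays alone or without C-G1 and C-G2. Over all probes these settings called 239 of 10708, 118 of 10164 and 102 of 10313. Without LPS-G0 replicates 3 and 4, 16 were below 0 with a median of -0.34. In that fit 1 had an unadjusted p under 0.05, where 15.9% of all probes had. The list mean ran from 0.14 to 0.29 in LPS-G0, or from 0.17 without its replicates 3 and 4, and from -0.58 to 0.0033 in LPS-G1. The part of red cell RNA in the Nfix result was not tested.

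Over the 24 arrays the r of Nfix with the erythroid list mean was 0.73 and rho was 0.63, a description that includes the arrays that chose Nfix. In the same description r was 0.57 after group means were taken off. Without the 2 farthest arrays, C-G1 replicate 2 and LPS-G1 replicate 2, r was 0.65. Within slides 1, 2 and 3, of 8 arrays each, r was 0.80, 0.85 and 0.34. On the 16 arrays of C-G2, LPS-G0, LPS-G1 and LPS-G2 it could be tested, for each of 8 lists with p adjusted over the 8. Group means were not taken off there, so differences between these groups enter r, rho and p. For the erythroid list r was 0.50 (permutation p of 0.0441, adjusted 0.176) and rho was 0.32 (permutation p of 0.227, adjusted 0.686). Without the 2 arrays farthest from the median list mean, LPS-G1 replicate 2 and C-G2 replicate 4, r was 0.09, so on these 16 arrays the relation rests on those samples. With the slide means taken off it was 0.49, and on 14 arrays, without LPS-G0 replicates 3 and 4, it was 0.45 (permutation p of 0.0973, adjusted 0.259).

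The other cell types were read with the same lists. On the 16 arrays, T cell genes had an r of -0.65 with Nfix (permutation p of 0.00328, adjusted 0.0262) and a rho of -0.58 (permutation p of 0.0204, adjusted 0.163), so the relation passed by r and did not pass by rho. It was -0.56 without the 2 arrays farthest from the median, C-G2 replicate 4 and LPS-G1 replicate 2, and -0.72 with the slide means taken off. Without LPS-G0 replicates 3 and 4 it no longer passed, with an r of -0.64 on 14 arrays (permutation p of 0.0095, adjusted 0.076). Differences between groups enter all of these values. Over all 24 arrays the r of the T cell list was -0.44, and -0.56 after group means were taken off, as a description. Taken in the latter way, r was -0.62 for cytotoxic genes, 0.57 for erythroid genes, -0.45 for monocytes and 0.42 for neutrophils. For platelets, lineage regulators and B cells it was 0.23, 0.17 and -0.095. Of the 6 tested T cell genes, Cd8a, the coreceptor of cytotoxic T cells, had the lowest r with Nfix over 24 arrays (-0.58). Cd3e, a chain of the T cell receptor complex, had the highest at 0.01. The lists of B cells, cytotoxic cells, neutrophils, monocytes, platelets and lineage regulators had r between -0.11 and 0.40 on the 16 arrays, with adjusted permutation p of 0.329 or more. Over all 24 arrays, cytotoxic genes had an r of -0.53, and all 7 tested had lower means in C-G0 than in C-G1, C-G2 and LPS-G0. The median differences were 0.62, 0.56 and 0.94, against 0.02 over all probes in each, and none of the genes was called. Without LPS-G0 replicates 3 and 4 the last was 1.11. In C-G1 vs. C-G2 the median was 0.03. C-G0 replicate 1 had the lowest list mean of its group, -1.63. Without it the median differences from C-G0 were 0.26 in C-G1, 0.29 in C-G2 and 0.59 in LPS-G0. The part of these cell types in the Nfix values was not tested.

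**Figure D4:**
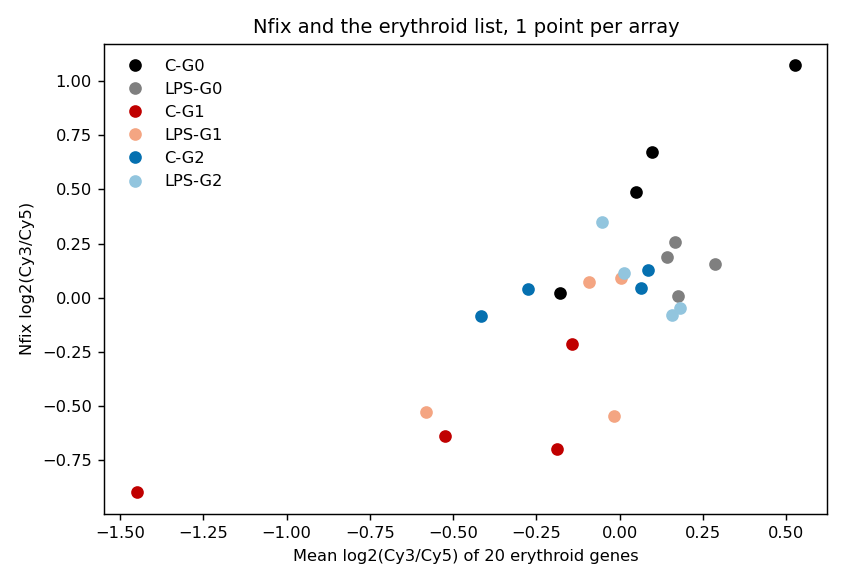
Log2 ratio of Nfix against the mean log2 ratio of 20 erythroid genes, 1 point per array, coloured by group. C-G1 replicate 2 lies at the lower left, with a list mean of -1.45 and Nfix at -0.90, and C-G0 replicate 1 at the upper right, with 0.53 and 1.07.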

How the data were processed

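The authors hybridised blood RNA of 24 rats with a common reference on Agilent SurePrint G3 Rat arrays. The deposited intensities and log10 ratios came from Agilent Feature Extraction (10.10.1.1 per the file headers, 10.7.3.1 per the labels), which subtracted background and balanced the dyes. The deposited table of 1511424 log10 ratios was identical to the single arrays. The deposited flags mark outlier spots (679 to 1133 per array), which were left out, and spots well above background. Spots of a probe were averaged, log10 ratios were turned to log2 Cy3 over Cy5, and 10708 of 30367 probes were tested. One model with 6 group means was fitted to 24 arrays with limma 3.58.1 in R 4.3.3, two-sided, adjusted by Benjamini-Hochberg over all probes. Arrays have no read depth, and their number limits the precision. In data simulated for LPS-G1 vs. LPS-G0, 72% of 200 changed probes among 10708 were recovered at 2-fold and 96% at 4-fold. False calls numbered 6 and 8. Noise was drawn for each probe on its own, without variation shared by the probes of an array. The recovery need not hold for the real arrays. Single values were also tested over the 70 arrangements of 8 arrays, and correlations by 100000 permutations.

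A gene's probe with the highest mean log2 Cy3 led. The rule named the members, the 10 genes with the highest r and the 5 with the lowest, the 10 highest with group means taken off, called lineage regulators, and Gata1, Klf1, Tal1, Nfe2, Bcl11a, Cebpa and Spi1. The members and lists were chosen with earlier results of these data known. All 4 genes matched RefSeq accessions in a table of another build, used for names. Samples were grouped by their titles. Replicate numbers are labels and were not used to pair the rats in the main model. Alternatives changed the filter, background correction, normalization, channel, slide block, probe and arrays. Each array came from 1 rat.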

Additional observations from a re-analysis of the deposited data

Results flagged for a closer look

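In 36 sets of 4 arrays (6 probes in 6 groups), the array farthest from the others was looked at by Dixon's criterion, which chance alone meets in about 1 in 20. Nfix, in log2 ratio, met it in no group. The dim probes were looked at in log2 Cy3. The Nfia probe A_44_P475418 met it in LPS-G0 (8.52 in replicate 2), in LPS-G1 (9.07 in replicate 1) and in LPS-G2, where its highest array, at 5.61, was not well above background. The first pair of arrays were both on slide 1, and this probe has 1 spot per array. The Nfia probe A_64_P134410 met it in LPS-G0 at 4.41, not well above background.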

How the results depend on the processing

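For Nfix, leaving out 1 array at a time kept the direction in 8 of the 9 comparisons and called none of the 4 tested. The log2 differences ran from -1.36 to -1.01 in C-G1 vs. C-G0, -0.71 to -0.36 in C-G2 vs. C-G0, -0.59 to -0.24 in LPS-G0 vs. C-G0, 0.28 to 0.52 in LPS-G1 vs. C-G1 and -0.78 to -0.55 in C-G1 vs. C-G2. In the tested ones they ran from -0.49 to -0.27 in LPS-G1 vs. LPS-G0, from -0.16 to -0.014 in LPS-G2 vs. LPS-G0, from -0.42 to -0.21 in LPS-G1 vs. LPS-G2 and from -0.036 to 0.11 in LPS-G2 vs. C-G2, the one that turned, without LPS-G2 replicate 3. With Cy3 alone the values were -0.18 in C-G2 vs. C-G0, -1.08 in C-G1 vs. C-G2, 0.085 in LPS-G2 vs. LPS-G0, for LPS-G2 vs. C-G2 -0.076, and for LPS-G1 vs. LPS-G2 -0.53. Array weights gave -0.26 in LPS-G0 vs. C-G0 and 0.25 in LPS-G1 vs. C-G1. LPS-G2 vs. LPS-G0 also turned without the arrays of conflicting labels (0.0017) and with the second probe (0.022), an alternative chosen after seeing the data. Of the 10 genes most like Nfix, 3 were shared with the 10 by Spearman's rho, 1 with those by Cy3 alone, and 5 to 9 when 1 array was left out. The adjusted p of LPS-G1 vs. LPS-G0 ran from 0.0752 to 1 over 17 alternatives. With the replicate number as a block the difference was -0.38 with an adjusted p of 0.157, but same-numbered arrays of these groups had correlations of -0.138 to 0.0709, so the numbers did not pair. Probes called numbered 3 in C-G1 vs. C-G0, 3 in C-G2 vs. C-G0, 0 in LPS-G0 vs. C-G0 and 3 in LPS-G1 vs. LPS-G0, and up to 314 and 159 without C-G0 replicate 4, 142 and 239 with array weights. With a replicate block the first and last were 88 and 100. The cause of these changes was not tested. Signal limits Nfia, Nfib and Nfic, which were at background.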
